A study of Homo sapiens with 21 samples.

Results

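The genes described here are 49 human genes of drug metabolism outside the CYP1 family, chosen by name: cytochrome P450 (CYP) enzymes and their reductase, conjugating enzymes, other oxidases, hydrolases, 3 nuclear receptors and 3 efflux transporters. They were found by symbol from the Ensembl identifiers of the deposited table, and all 49 are among its 37637 features. The cells are HepG2, an established human hepatocellular carcinoma line, and 1 line stands for liver cells throughout. In each group the medium with serum was removed, the cells were washed, and they were kept for 24 h in serum-free DMEM that held caffeine. The control group received 0 µM and is labelled untreated, and the other groups received 0.01, 0.1, 1, 10, 100 or 1000 µM. Each group has 3 libraries, which the submitters call biological replicates, so there are 21 libraries. All groups, control included, share the change to serum-free medium, and the design sets each dose against control.

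Drug metabolism is usually described in phases. CYP enzymes, fed with electrons by the reductase POR, and flavin monooxygenases oxidise a compound, and carboxylesterases and epoxide hydrolases split it. UGT, SULT, GST and NAT enzymes then attach glucuronic acid, sulfate, glutathione or an acetyl group, and efflux pumps of the ABC family carry the products out of the cell. In hepatocytes many of these genes are controlled by the nuclear receptors PXR (NR1I2) and CAR (NR1I3), which pair with RXRA. Caffeine itself is cleared mainly by CYP1A2, which is not among these genes. CYP2E1, NAT2 and XDH (xanthine dehydrogenase) are among the listed genes known to act on caffeine or on its breakdown products.

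Total counts per library ran from 23502519 to 44815552. All 10 hepatocyte markers were present, with albumin (ALB) at 10400 to 15300 counts scaled to library size (CPM) in control and 6110 to 6550 CPM at 1000 µM. Their summed level was 36000 to 44700 CPM in control, 34900 to 40600 CPM in the groups from 0.01 to 100 µM and 28800 to 30200 CPM at 1000 µM. At 1000 µM 7 of the 10 lay below all control libraries, AFP for example at 1900 to 2200 against 4810 to 6320 CPM, while APOB (12700 to 14300 against 7450 to 9100 CPM) and TTR lay above and HNF4A overlapped. Of 6 fibroblast or stellate markers 5, among them COL1A1 and COL3A1, had at most 2 counts in any library, while PDGFRB had 3.18 to 3.79 CPM in control and 18.1 to 23.5 CPM at 1000 µM. Of 5 immune markers in the table PTPRC and CD3E had at most 1 count and CD14 under 1 CPM, while CD68 had 40.9 to 55.1 CPM in control and 18.2 to 46 CPM at 1000 µM and LYZ (lysozyme) had 889 to 1020 CPM in control and 1350 to 1900 CPM at 1000 µM. The 3 endothelial markers in the table had at most 0.332 CPM in sum. The part of these markers in the results was not tested. The libraries fell into 3 sets by their mitochondrial mRNAs, and these sets are not in the labels. Set A (11 libraries) is made up of the control, 0.01 µM and 0.1 µM groups with the first 2 replicates of the 1 µM group. Set B (7 libraries) is made up of the 10 µM group, the remaining 1 µM replicate, the second of the 100 µM replicates and the first 2 of the 1000 µM group. The remaining 3 libraries, 2 of the 100 µM group and replicate 3 of the 1000 µM group, form set C. No control library is in set B or C, and no library at 10, 100 or 1000 µM is in set A. Each comparison with control was therefore also fitted with the library set as a term, and 1000 µM was compared with 10 µM within set B alone (2 libraries against 3). In bulk RNA, fewer cells expressing a gene and less RNA per cell cannot be told apart.

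Of the 49 genes, 11 were too low to measure in these cells, 7 were low and 31 were measured. Too low means that the filter on low counts did not keep the gene, and low means that it was kept with a mean under 1 CPM over the 21 libraries. XDH had 0 counts in all 21 libraries, where 3 counts would be 0.064 to 0.132 CPM. CYP2C19, FMO1, NAT2 and GSTP1 (the pi class glutathione transferase) had no more than 2 counts in any library. CYP2C8, CYP2E1, CYP2U1, UGT2B15, GSTA1 and GSTA2 had at most 5 to 15 counts in their highest library. For GSTA1 and GSTA2, 26.24% and 18.35% of the 50-base windows of the transcripts also occur in other genes, and for CYP2C19 49.15% do, so even these counts may be split. CYP2E1, NAT2 and XDH were thus each too low to measure here.

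The 7 low genes were CYP2J2, CYP3A4, CYP26A1, NR1I3, UGT1A1, UGT1A6 and UGT2B4. CYP3A4, the main drug-oxidising CYP of adult liver, had 0.113 to 0.434 CPM, a highest count of 17. CYP3A5 was far higher, at 16.4 to 33.8 CPM, and CYP3A7, the form of fetal liver, had 6.45 to 11.7 CPM. UGT1A1 and UGT1A6 share their last exons with the rest of the UGT1A locus (49.52% and 59.93% of windows occur in other genes), and their counts are uncertain for that reason.

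To compare levels between genes, CPM were divided by exon length in kb (GENCODE 29). In the control libraries the highest was ALDH1A1, which oxidises retinaldehyde and drug aldehydes, at 197 ± 23.8 CPM per kb (SD, n = 3). GSTO1 followed at 75.8 ± 11.6 and UGT2B7 at 69.0 ± 9.23 CPM per kb, a pair whose ranges overlap. SULT2A1 had 49.0 ± 2.62, SULT1A1 37.6 ± 3.57, POR 35 ± 3.05, FMO5 31.8 ± 4.31, EPHX1 27.1 ± 2.57 and ABCB1 26.5 ± 1.05 CPM per kb. From SULT1A1 to FMO5, and between EPHX1 and ABCB1, neighbours in this order differ by less than the larger SD of the pair. Among the CYP enzymes CYP2B6 had the highest value per kb, 5.87 ± 0.328 CPM. CYP4F11 had 3.88 ± 0.259, CYP2S1 3.78 ± 0.828 and CYP3A5 3.51 ± 0.51 CPM per kb. Before division by length CYP3A5 was at 23.8 and CYP2B6 at 22.1 CPM in control. Their annotated exons span 6759 and 3765 bases, so the order of these genes depends on the annotation. By this measure the highest values thus belong to an aldehyde dehydrogenase and conjugating enzymes, not CYP enzymes.

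**Figure D1:**
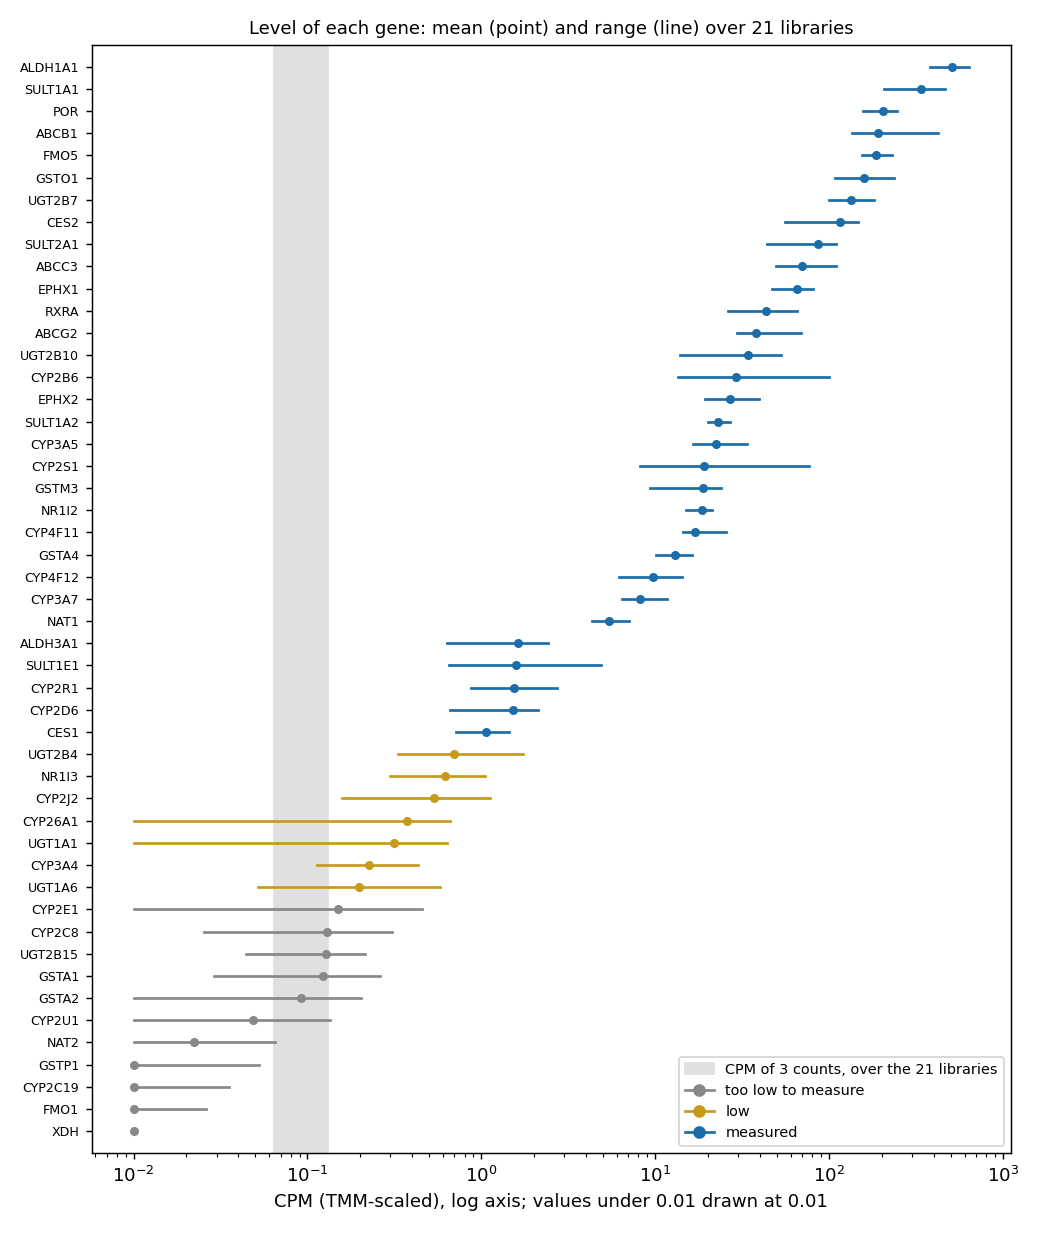
Level of each of the 49 genes as the mean (point) and range (line) over 21 libraries, in TMM-scaled CPM on a log axis. The 11 genes too low to measure (grey) have means within, close to or below the band that marks 3 counts, with values under 0.01 CPM drawn at 0.01, the 7 low genes (yellow) have means under 1 CPM, and ALDH1A1 is highest.

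The 3 lowest doses gave no call among the 38 genes kept by the filter (edgeR's quasi-likelihood test, adjusted p over all features tested). At 0.01 µM 0 of 38 passed (background 0.0279% of 17951 features), and 11 reached 0.05 before adjustment (28.9%, against 15% of all features). At 0.1 µM 0 passed (background 0%) and 7 reached it before adjustment (18.4% against 9.48%), and for 1 µM the numbers were 0 (background 0.106%) and 3 (7.89% against 15.7%). The median log2 fold change of the 38 was 0.03, -0.02 and 0.00 at these doses, against -0.01, 0.00 and 0.01 over all features. With the library set as a term, CYP3A5 (-0.43 ± 0.11 SE, adjusted p = 0.0389), CYP3A7 (-0.50 ± 0.13, adjusted p = 0.0453) and SULT1A1 (0.36 ± 0.076, adjusted p = 0.0267) passed at 0.01 µM, where 3.02% of features did. DESeq2's test called 3 genes at 0.01 µM (background 3.37%), 0 at 0.1 µM (background 0.296%) and 1 at 1 µM (background 3.65%). These backgrounds are over the 11684, 17246 and 11684 features to which DESeq2 gave an adjusted p, while the genes called were counted among all 38.

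At 10 µM 4 of 38 passed, 3 higher and 1 lower (background 14.8%, 7.27% higher and 7.49% lower). EPHX2, GSTO1 and RXRA were the higher genes and CYP3A7 the lower. With the set as a term none of the 4 passed, and 0.0279% of all features did. Without replicate 2 at 10 µM none passed either. At this dose every library is of set B and every control of set A, so the difference between sets A and B rests on the 1 µM group, the one group with libraries in both (2 in set A and 1 in set B). The same holds for every value with the set as a term at 100 and 1000 µM against control, which thus depends on 1 set B library at 1 µM.

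At 100 µM 15 of 38 passed, 6 higher and 9 lower (background 46.6%, 23.6% higher and 22.9% lower), and with the set as a term 7 did, 3 higher and 4 lower (background 17.3%, 9.14% higher and 8.21% lower). At 1000 µM 27 of 38 passed, 16 higher and 11 lower (background 57.6%, 28.5% higher and 29.1% lower), and with the set as a term 16 did, 9 higher and 7 lower (background 38%, 18.2% higher and 19.8% lower). Within set B 30 of 39 genes differed between 1000 and 10 µM, 15 in each direction (background 65.1%, 31.5% higher and 33.6% lower). The 39 include a CYP enzyme that is too low to measure over all libraries but was kept by the filter run within set B. It was not called. Without UGT1A6, which the filter kept only through its 1000 µM libraries, the count at that dose was 26 of 37, 15 higher. The median log2 fold change at 1000 µM was 0.11, against -0.01 over all features tested, but it was -0.10 over the 26 members with a mean of at least 5 CPM and -0.07 within set B. In the joint test of the 7 groups 29 of 38 differed, against 73.6% of features, and 28 did with the set as a term, against 59.8% (28 and 27 of 37 without UGT1A6). The members called were 39.5% of those tested at 100 µM and 71.1% at 1000 µM, or 18.4% and 42.1% with the set as a term. At 100 µM this is below the background without the set as a term and close to it with the term, and no difference from the background was tested.

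In all, 16 genes moved the same way in all 3 comparisons of 1000 µM, that is against control, against control with the set as a term, and against 10 µM within set B. They are 42.1% of the 38, where 33.7% of all features met the same rule, 16.5% higher and 17.2% lower. The 9 higher were CYP2B6, CYP2S1, CYP4F11, CYP4F12, SULT1E1, ALDH3A1, ABCB1, ABCC3 and ABCG2, and the 7 lower were CYP2D6, UGT2B7, UGT2B10, SULT2A1, GSTM3, CES2 and ALDH1A1. The 3 comparisons share the 1000 µM libraries and are not independent of each other. For ALDH1A1 and UGT2B7 the call within set B hung on 1 library: the differences of -0.17 and -0.19 became -0.096 and -0.11, not called, without replicate 1 at 1000 µM.

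**Figure D2:**
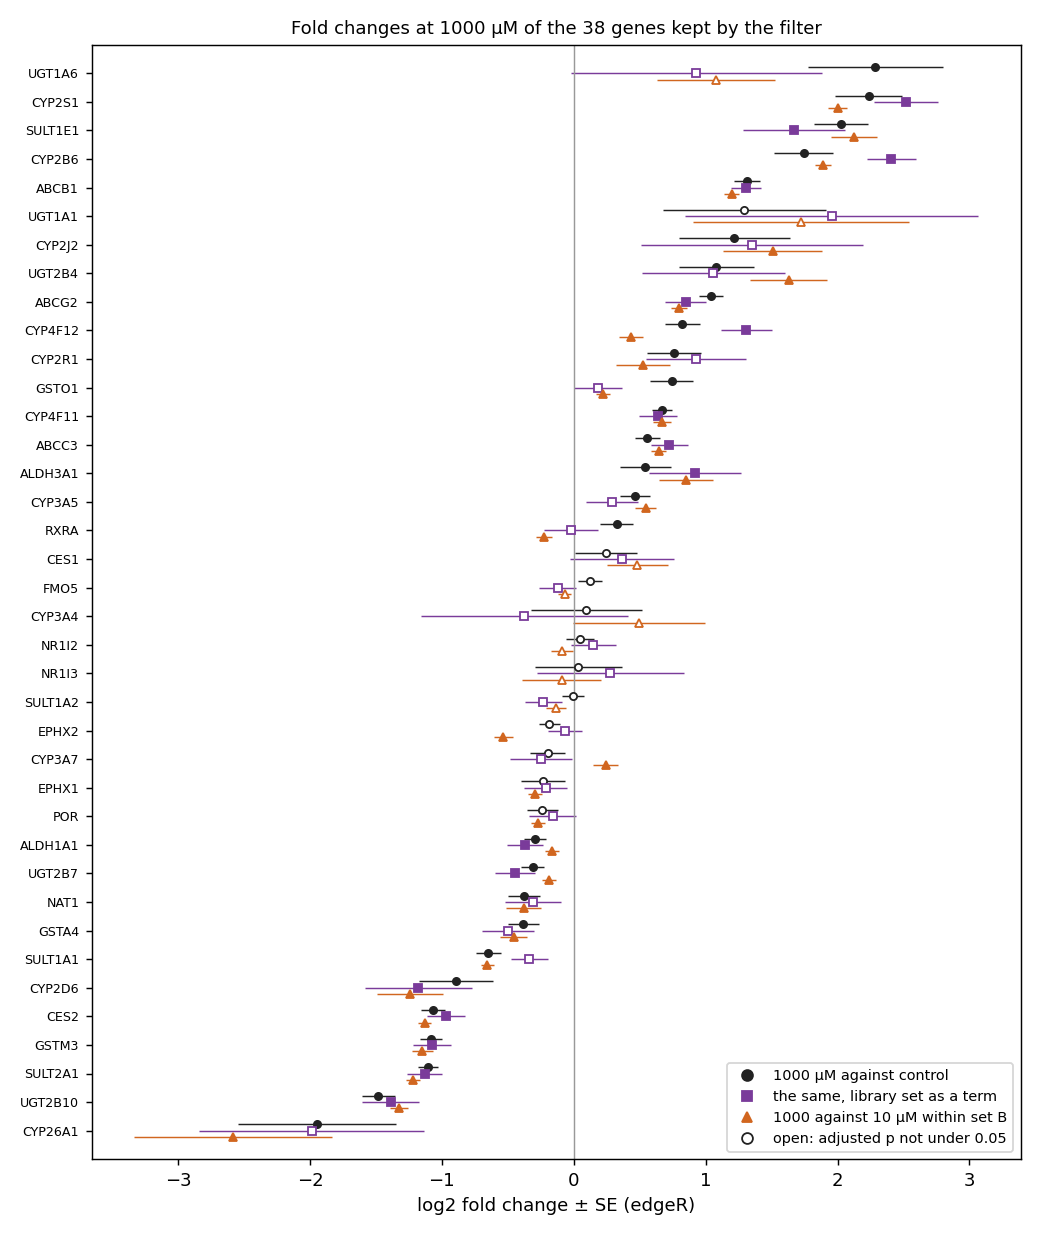
Log2 fold change ± SE (edgeR) of the 38 genes at 1000 µM, against control (circles), against control with the library set as a term (squares) and against 10 µM within set B (triangles), with open symbols where the adjusted p is not under 0.05. CYP2S1, SULT1E1, CYP2B6 and ABCB1 lie to the right in all 3 comparisons and UGT2B10, SULT2A1, GSTM3 and CES2 to the left, while GSTO1 and RXRA lie nearer 0 or across it once the set is a term.

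Of the 15 CYP enzymes 11 were tested, and at 1000 µM 7 rose and 2 fell (all features: 28.5% higher and 29.1% lower). With the set as a term 4 were higher and 1 lower (18.2% and 19.8%). The largest rise was that of CYP2S1, a CYP found in many tissues outside the liver and known as a target of the aryl hydrocarbon receptor. It had 11.7, 12.7 and 8.17 CPM in the control libraries, 8.60 to 15.5 CPM (median 13.1) in the 9 libraries at 0.01 to 1 µM, and 10.1, 9.06 and 9.36 CPM at 10 µM. It then had 26.1, 16.9 and 25.5 CPM at 100 µM and 39.1, 38.9 and 76.3 CPM at 1000 µM. Each library at 100 µM lay above all at lower doses, and each at 1000 µM above all at 100 µM. The log2 fold change against control was 1.06 ± 0.25 at 100 µM (adjusted p = 0.00197) and 2.23 ± 0.25 at 1000 µM (adjusted p = 6.1e-07). Within set B the 1000 µM libraries exceeded those at 10 µM by 2.0 ± 0.072 (adjusted p = 3.32e-10).

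CYP2B6 encodes an enzyme that oxidises bupropion and efavirenz and is a textbook target of CAR and PXR. It had 21.9, 23.4 and 21.0 CPM in the control libraries, 13.5 to 27.7 CPM (median 24.6) at 0.01 to 1 µM, and 16.0, 16.6 and 15.8 CPM at 10 µM. At 100 µM it had 22.2, 14.9 and 21.6 CPM and at 1000 µM 60.5, 62.2 and 99.8 CPM. The rise was thus seen at the top dose alone, with no overlap with any other library. The lowest values below that dose, 13.5 to 16.6 CPM, are all in set B. The log2 fold change at 1000 µM was 1.75 ± 0.22 against control (adjusted p = 2.79e-06), 2.41 ± 0.19 with the set as a term and 1.89 ± 0.062 within set B. For both CYP2B6 and CYP2S1 replicate 3 at 1000 µM, the set C library, was well above replicates 1 and 2.

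The 250 bases before the RefSeq start of CYP2B6 (GRCh38.p14, chr19:40991032-40991281, plus strand) are shown because it is among the genes with the largest rise, together with SULT1E1 (chr4:69860146-69860395, minus strand), which rose as well, and with UGT2B10 (chr4:68815744-68815993, plus strand) and SULT2A1 (chr19:47886316-47886565, minus strand), which fell. Capitals mark matches to the motifs searched on both strands.
CYP2B6: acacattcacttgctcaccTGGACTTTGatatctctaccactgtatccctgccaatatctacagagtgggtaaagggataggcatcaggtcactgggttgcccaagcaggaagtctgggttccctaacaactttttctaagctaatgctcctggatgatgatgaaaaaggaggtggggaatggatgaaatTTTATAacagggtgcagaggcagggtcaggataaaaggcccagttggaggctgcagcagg
SULT1E1: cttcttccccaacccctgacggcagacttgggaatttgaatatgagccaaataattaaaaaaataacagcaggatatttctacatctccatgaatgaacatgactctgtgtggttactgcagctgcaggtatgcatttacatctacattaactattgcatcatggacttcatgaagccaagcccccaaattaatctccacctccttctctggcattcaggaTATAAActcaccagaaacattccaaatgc
UGT2B10: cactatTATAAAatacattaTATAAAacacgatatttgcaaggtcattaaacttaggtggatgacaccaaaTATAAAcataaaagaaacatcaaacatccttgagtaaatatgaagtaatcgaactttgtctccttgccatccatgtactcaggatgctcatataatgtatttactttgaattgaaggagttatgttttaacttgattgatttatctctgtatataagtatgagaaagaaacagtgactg
SULT2A1: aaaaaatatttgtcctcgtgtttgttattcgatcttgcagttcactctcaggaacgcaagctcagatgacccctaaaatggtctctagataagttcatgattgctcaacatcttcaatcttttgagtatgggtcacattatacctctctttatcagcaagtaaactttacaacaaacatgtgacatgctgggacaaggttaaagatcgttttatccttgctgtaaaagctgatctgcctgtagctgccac
In CYP2B6 the HNF4 element CAAAGTCCA matched on the opposite strand, 231 bases before the start, and TATAAA on the opposite strand 60 bases before it. SULT1E1 held TATAAA 29 bases before its start and UGT2B10 held it at 3 places, 179, 230 and 244 bases before, while the SULT2A1 window held no match. Of 35116 RefSeq windows of this length, 0.325% held CAAAGTCCA and 10.7% held TATAAA. Windows were given for 37 of the 49 genes, and 15 of them held TATAAA and 3 CAAAGTCCA (CYP2B6, CYP2C8 and CYP2R1). A gene was counted if any of its windows held the motif, while the percentages are shares of single windows, so they are not like for like. The cAMP response element TGACGTCA was in none of the 37, against 1.65% of all windows. The aryl hydrocarbon receptor core GCGTG was in 7 of the 37, against 32.2%, and its longer form TNGCGTG, which contains the core, in UGT1A6 and CES2, against 4.52%. A match is a run of letters in this window, not a measured binding site.

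CYP4F11 and CYP4F12, both on chromosome 19, hydroxylate fatty acids at the end of the chain. CYP4F11 had 16.0, 16.4 and 14.5 CPM in control, 15.8, 15.0 and 15.3 at 10 µM, 16.2, 14.5 and 16.3 at 100 µM and 25.4, 24.6 and 24.7 CPM at 1000 µM. It changed at the top dose alone, by 0.67 ± 0.079 (adjusted p = 6.79e-07), and by the same 0.67 within set B. CYP4F12 had 7.79, 7.79 and 6.48 CPM in control, 12.6, 13.4 and 13.1 CPM at 100 µM and 13.3, 11.6 and 14.3 CPM at 1000 µM. Its log2 fold change was 0.82 ± 0.13 at both doses, and the difference between them was 0.00 ± 0.13.

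CYP3A5 had 25.5, 19.8 and 26.0 CPM in control, 16.4 to 20.0 CPM (median 18.6) at 0.01 to 1 µM, 23.6, 17.8 and 23.0 CPM at 100 µM and 33.8, 32.9 and 31.6 CPM at 1000 µM. The top dose lay above every other library, at 0.47 ± 0.11 against control (adjusted p = 0.00163), 0.29 ± 0.20 with the set as a term (adjusted p = 0.26) and 0.55 ± 0.079 within set B (adjusted p = 5.18e-05). CYP3A7 had 9.69, 8.65 and 11.7 CPM in control and 8.75, 9.25 and 8.17 CPM at 1000 µM, and its difference of -0.20 ± 0.13 did not pass (adjusted p = 0.215). Within set B it was higher at 1000 than at 10 µM, by 0.24 ± 0.098 (adjusted p = 0.0468), a call lost without any of 4 of the 5 libraries compared. Its 10 µM call, -0.43 ± 0.13 (adjusted p = 0.0369), was lost without any of 6 single libraries, control replicates 1 and 3, replicate 2 at 0.1 µM and each library at 10 µM, and 39.77% of its windows occur in other genes, mostly the read-through CYP3A7-CYP3A51P. CYP3A4 had 0.397, 0.260 and 0.192 CPM in control and 0.434, 0.248 and 0.207 CPM at 1000 µM, a log2 fold change of 0.10 ± 0.42 (adjusted p = 0.86).

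CYP2R1, a vitamin D 25-hydroxylase, had 1.28, 1.17 and 1.84 CPM in control and 2.37, 2.73 and 2.11 CPM at 1000 µM, and rose by 0.76 ± 0.20 (adjusted p = 0.00333). With the set as a term the difference was 0.93 ± 0.38 (adjusted p = 0.0627), and within set B 0.52 ± 0.21 (adjusted p = 0.0399), lost without any of 4 libraries (replicates 1 and 3 of the 10 µM group and both 1000 µM libraries). CYP2J2, an epoxygenase of arachidonic acid, had a highest count of 42, and its rise of 1.22 ± 0.42 (adjusted p = 0.0189) was lost with the set as a term (1.35 ± 0.84, adjusted p = 0.22) and without control replicate 1 or 2 or replicate 1 at 1000 µM. Within set B it was 1.51 ± 0.38 (adjusted p = 0.00349), also lost without replicate 1 at 1000 µM.

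CYP26A1 and CYP2D6 were the CYP enzymes that fell. CYP26A1, which clears retinoic acid, had 0.306, 0.363 and 0.268 CPM in control and 0, 0.177 and 0.0829 CPM at 1000 µM, with 0.176 to 0.657 CPM in the 18 libraries below that dose. Its log2 fold change was -1.95 ± 0.60 (adjusted p = 0.00949), lost without replicate 1 at 1000 µM, where it became -1.23, and it was -3.13 without replicate 2. With the set as a term it was -1.99 ± 0.85 and did not pass (adjusted p = 0.0739). CYP2D6, which oxidises codeine and many antidepressants, had 1.86, 1.97 and 1.27 CPM in control and 0.663, 0.744 and 1.41 CPM at 1000 µM. The set C library lay within the range of the controls and both set B libraries lay below it. The difference was -0.89 ± 0.28 (adjusted p = 0.0104) and -1.24 ± 0.25 within set B, and the call against control was lost without replicate 1 or replicate 2 at 1000 µM. Of the CYP2D6 windows 34.38% occur in other genes, mostly CYP2D7.

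POR and the receptors PXR and CAR did not pass at 1000 µM. POR had 219, 229 and 193 CPM in control and 157, 156 and 232 CPM at 1000 µM, a difference of -0.24 ± 0.12 (adjusted p = 0.0913), with the set C library above both others. Within set B it was 0.27 lower at 1000 than at 10 µM on the log2 scale (adjusted p = 0.000586). PXR (NR1I2) had 17.5, 19.5 and 16.0 CPM in control and 17.8, 19.6 and 17.4 CPM at 1000 µM, and its log2 fold change was 0.05 ± 0.11 (adjusted p = 0.719). CAR (NR1I3) had 0.642, 0.571 and 0.690 CPM in control and 0.791, 0.744 and 0.373 CPM at 1000 µM, and its log2 fold change was 0.03 ± 0.33 (adjusted p = 0.939). For neither receptor did any dose separate from control.

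RXRA had 40.0, 37.3 and 26.3 CPM in control, 47.8, 48.5 and 43.8 CPM at 10 µM, 60.4, 65.4 and 57.3 CPM at 100 µM and 41.9, 39.9 and 48.2 CPM at 1000 µM. Its highest libraries were those at 100 µM, where it rose by 0.82 ± 0.13 (adjusted p = 3.08e-05), and by 0.47 ± 0.22 with the set as a term (adjusted p = 0.152). The step from 100 to 1000 µM was -0.50 ± 0.13 (adjusted p = 0.00337), and -0.49 ± 0.12 with the set as a term. Its value at 1000 µM against control, 0.33 ± 0.13 (adjusted p = 0.0329), became -0.02 ± 0.21 with the set as a term and was lost without control replicate 3, where it was 0.17, or without replicate 1 or 3 at 1000 µM. Within set B RXRA was lower at 1000 than at 10 µM, at -0.22 ± 0.063 (adjusted p = 0.00767), a call lost without replicate 2 at 1000 µM.

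**Figure D3:**
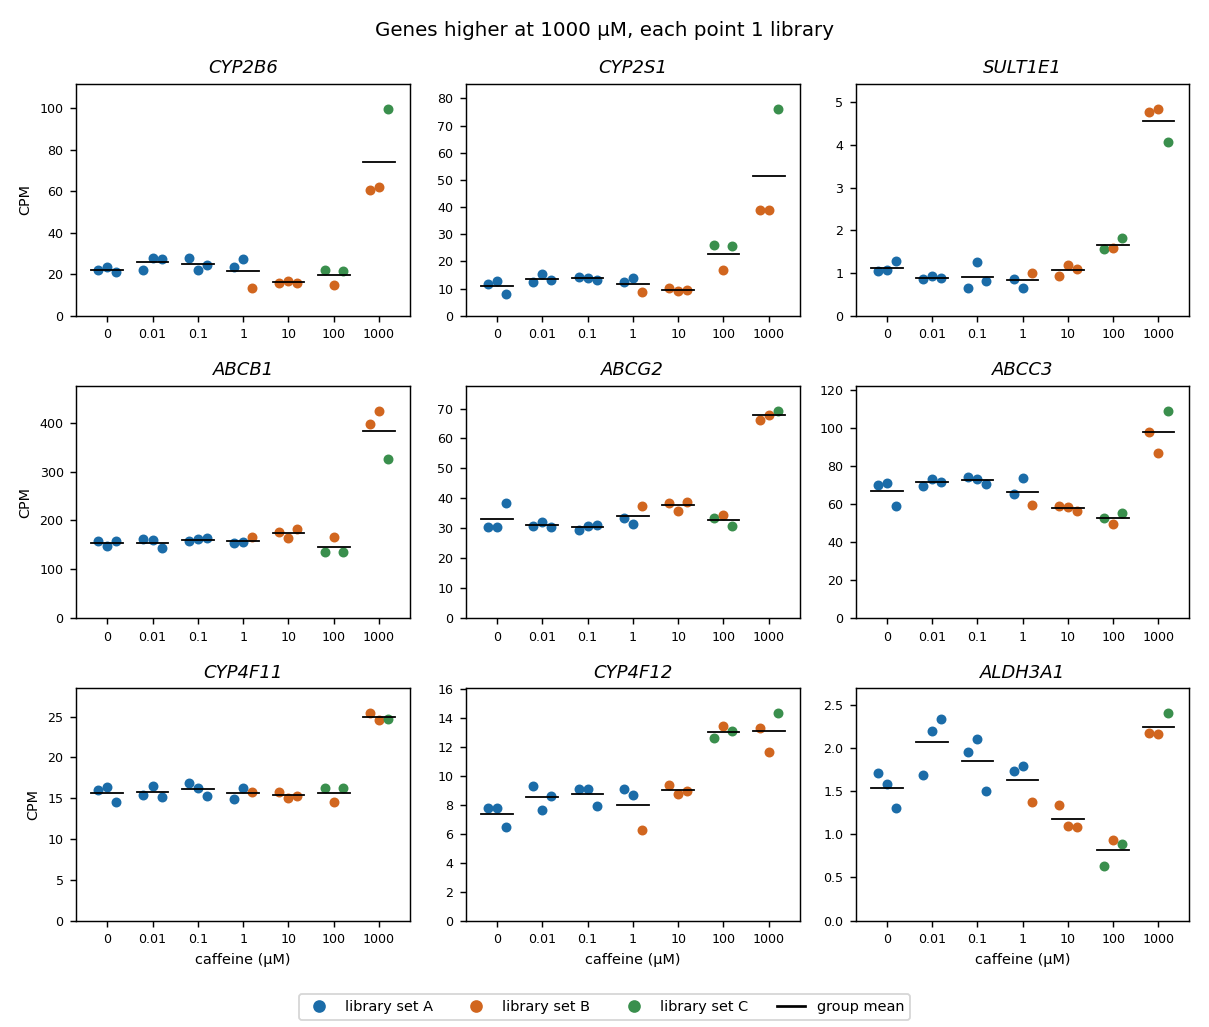
CPM of the 9 genes that were higher at 1000 µM in all 3 comparisons, 1 point per library, coloured by library set, with group means as bars and caffeine in µM along each axis. CYP2B6, ABCB1, ABCG2, CYP4F11 and SULT1E1 stand apart at 1000 µM, CYP4F12 is already higher at 100 µM, and ALDH3A1 is lowest at 100 µM.

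Of the UGT enzymes 5 of 6 were tested, and at 1000 µM 2 rose and 2 fell (all features: 28.5% higher and 29.1% lower). One of the risers, UGT1A6, was kept by the filter only through its 1000 µM libraries. With the set as a term 0 were higher and 2 lower (18.2% and 19.8%). UGT2B10, which attaches glucuronic acid to nitrogen, as in nicotine, had 34.0, 41.9 and 53.1 CPM in control, 32.4 to 43.7 CPM (median 37.2) at 0.01 to 1 µM and 37.8, 41.5 and 39.1 CPM at 10 µM. At 100 µM it had 30.4, 31.1 and 26.8 CPM and at 1000 µM 15.9, 16.3 and 13.8 CPM. The 100 µM libraries lay below all those at lower doses, and the 1000 µM libraries below those. The log2 fold change was -0.55 ± 0.13 at 100 µM (adjusted p = 0.00149, and 0.262 with the set as a term), and -0.35 without control replicate 3. At 1000 µM it was -1.48 ± 0.13 (adjusted p = 1.04e-08) and -1.32 ± 0.070 within set B. Of its windows 30.9% occur in other genes, among them UGT2B pseudogenes.

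UGT2B7, which glucuronidates morphine, had 142, 146 and 180 CPM in control, 114, 99.4 and 114 CPM at 100 µM and 123, 134 and 120 CPM at 1000 µM. It was lower by 0.51 on the log2 scale at 100 µM (adjusted p = 9.35e-05) and by 0.31 at 1000 µM (adjusted p = 0.00471), or -0.20 as a log2 fold change without control replicate 3. UGT2B4, at 0.332 to 0.920 CPM below 1000 µM, had 1.51, 1.74 and 1.16 CPM at that dose, and rose by 1.08 ± 0.28 (adjusted p = 0.00274). The difference was 1.06 ± 0.54 with the set as a term (adjusted p = 0.133), and within set B 1.63 ± 0.29 (adjusted p = 0.000307). UGT1A1 had 0.153, 0.363 and 0.230 CPM in control, 0 to 0.433 CPM over the 18 libraries below 1000 µM and 0.612, 0.638 and 0.622 CPM at that dose, above all others. Its log2 fold change was 1.29 ± 0.62 (adjusted p = 0.0815), and 1.96 ± 1.11 with the set as a term (adjusted p = 0.176), and its highest count was 24. UGT1A6 had 0.0519 to 0.332 CPM below 1000 µM and 0.485, 0.354 and 0.580 CPM at it, and its highest count was 19. It reached the filter's minimum, 0.292 CPM, in all 3 libraries at 1000 µM and in 1 of the other 18, so the filter kept it only through the group where it is high. Its log2 fold change of 2.29 ± 0.51 is therefore a description, and it was 0.93 ± 0.95 with the set as a term and 1.08 ± 0.45 within set B.

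Of the 4 SULT enzymes, at 1000 µM 1 was higher, 2 were lower and 1 was not called (all features: 28.5% higher and 29.1% lower). With the set as a term 1 was higher, 1 lower and 2 were not called (18.2% and 19.8%). SULT1E1, the estrogen sulfotransferase, had 1.04, 1.06 and 1.27 CPM in control, 0.651 to 1.25 CPM (median 0.867) at 0.01 to 1 µM and 0.932, 1.18 and 1.10 CPM at 10 µM. At 100 µM it had 1.57, 1.58 and 1.81 CPM and at 1000 µM 4.77, 4.85 and 4.06 CPM, and both groups lay above every lower dose. The log2 fold change was 0.56 ± 0.21 at 100 µM (adjusted p = 0.0358, and 0.766 with the set as a term), lost without control replicate 1 or 2 or any library at 100 µM. At 1000 µM it was 2.03 ± 0.21 (adjusted p = 8.91e-08), 1.67 ± 0.39 with the set as a term and 2.12 ± 0.18 within set B. SULT1E1 shares 20.03% of its windows with the unnamed locus AC108941.2.

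SULT2A1, which sulfates dehydroepiandrosterone and bile acids, had 94.5, 94.2 and 103 CPM in control, 88.0 to 110 CPM (median 95.4) at 0.01 to 1 µM and 104, 101 and 104 CPM at 10 µM. At 100 µM it had 73.9, 63.5 and 71.4 CPM and at 1000 µM 44.0, 46.7 and 45.1 CPM. It stepped down at each of the top doses without overlap, and the 1000 µM libraries of sets B and C were alike. The log2 fold change was -0.49 ± 0.077 at 100 µM (adjusted p = 4.56e-05, and 0.0111 with the set as a term) and -1.10 ± 0.078 at 1000 µM (adjusted p = 6.24e-10). Within set B it was -1.22 ± 0.056.

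SULT1A1, the main sulfotransferase for phenols, had 339, 364 and 301 CPM in control, 340 to 461 CPM (median 417) at 0.01 to 1 µM, 324, 323 and 307 CPM at 10 µM, 275, 296 and 269 CPM at 100 µM and 206, 207 and 228 CPM at 1000 µM. It fell by 0.65 at 1000 µM on the log2 scale (adjusted p = 6.66e-06), and the difference with the set as a term was -0.34 ± 0.14 (adjusted p = 0.0621), and within set B -0.65 ± 0.051 (adjusted p = 1.99e-07). Its near copy SULT1A2 had 20.4, 23.7 and 22.7 CPM in control and 22.7, 20.0 and 23.8 CPM at 1000 µM, with a log2 fold change of 0.00 ± 0.085 (adjusted p = 0.967). SULT1A2 shares 22.05% of its windows with other genes, and how the authors counted shared reads is not given in the sources used here.

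Of the GST enzymes 3 of 6 were tested. GSTM3 had 18.9, 20.9 and 21.7 CPM in control, 19.5 to 23.7 CPM (median 21.7) at 0.01 to 1 µM, 20.4, 21.7 and 19.6 CPM at 10 µM, 16.1, 13.9 and 14.9 CPM at 100 µM and 9.26, 9.81 and 9.95 CPM at 1000 µM. It stepped down at both top doses without overlap, by 0.45 at 100 µM (adjusted p = 0.000198) and by 1.08 at 1000 µM (adjusted p = 2.62e-09) on the log2 scale, and within set B the difference was -1.15 ± 0.082. GSTA4, which conjugates the lipid aldehyde 4-hydroxynonenal, had 12.8, 12.2 and 16.2 CPM in control and 10.1, 10.4 and 11.2 CPM at 1000 µM. Its difference of -0.38 ± 0.12 (adjusted p = 0.00936) was -0.25 and no longer called without control replicate 3, and -0.50 ± 0.20 with the set as a term (adjusted p = 0.0517). It was also lower than at 10 µM within set B, at -0.45 ± 0.10 (adjusted p = 0.00175), and than at 100 µM, at -0.44 ± 0.12 (adjusted p = 0.00506).

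GSTO1, an omega class enzyme that also reduces arsenic compounds, moved with the library sets. It had 118, 116 and 151 CPM in control, 204, 198 and 185 CPM at 10 µM, 164, 205 and 170 CPM at 100 µM and 231, 235 and 175 CPM at 1000 µM. At 1 µM it had 151 and 117 CPM in the set A libraries and 213 CPM in the set B library. Its rises of 0.61 at 10 µM, 0.49 at 100 µM and 0.74 at 1000 µM on the log2 scale became -0.05, 0.05 and 0.18 with the set as a term, none of them called. Within set B it was 0.22 ± 0.054 higher at 1000 than at 10 µM (adjusted p = 0.00301). NAT1, the acetyltransferase found in most tissues, had 5.71, 5.27 and 7.09 CPM in control and 4.34, 4.85 and 4.73 CPM at 1000 µM, and its fall of -0.38 ± 0.12 (adjusted p = 0.0125) was lost without control replicate 3, where it was -0.24, without replicate 1 at 1000 µM, and with the set as a term, where it was -0.31 ± 0.22 (adjusted p = 0.278). Within set B it was -0.38 ± 0.13 (adjusted p = 0.0245), lost without any of 3 libraries.

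**Figure D4:**
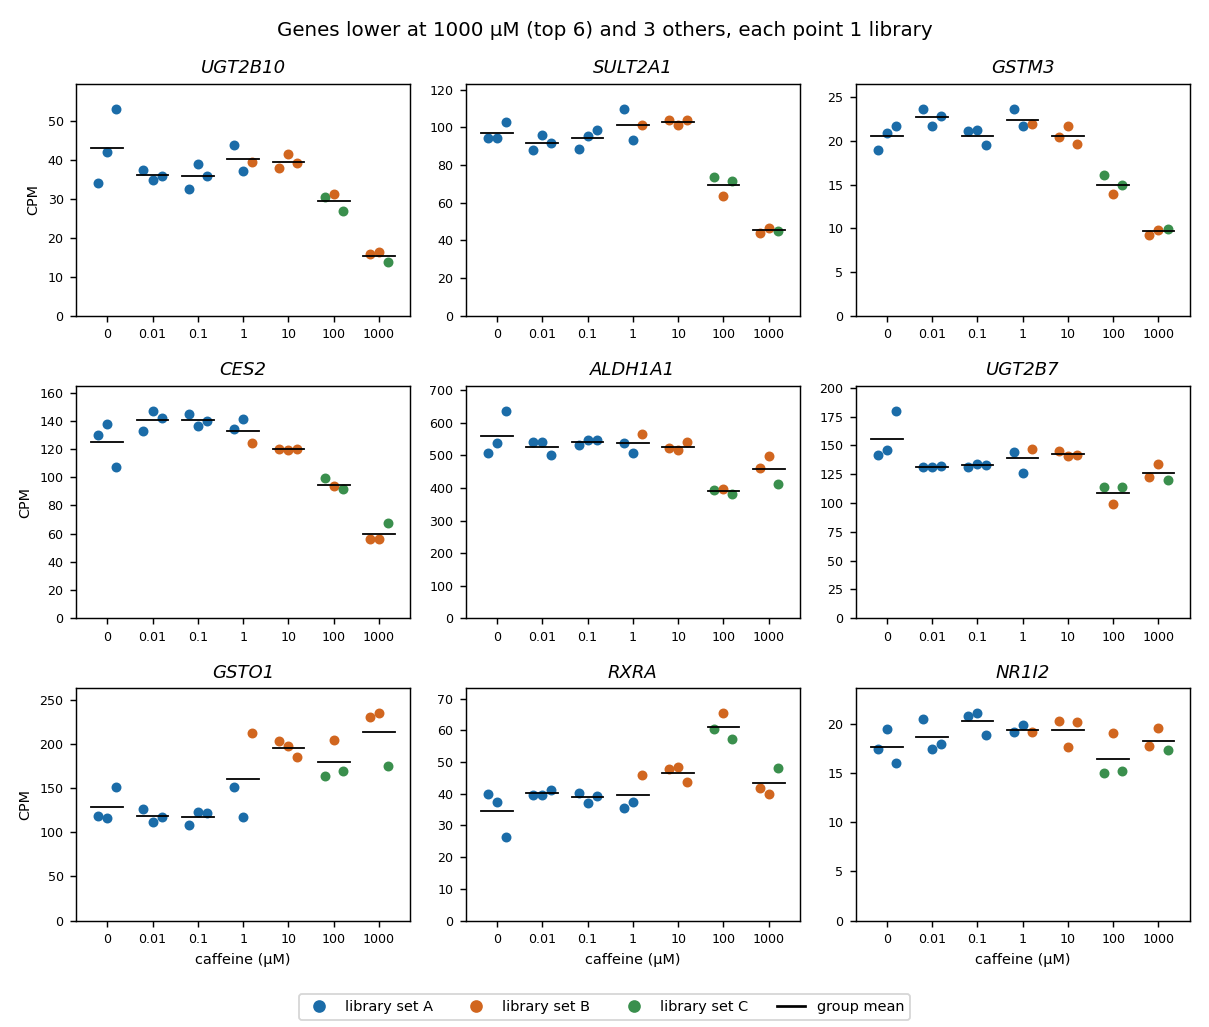
CPM of 6 genes that were lower at 1000 µM, and of GSTO1, RXRA and NR1I2, 1 point per library, coloured by library set, with group means as bars and caffeine in µM along each axis. UGT2B10, SULT2A1, GSTM3 and CES2 step down at 100 and again at 1000 µM, ALDH1A1 and UGT2B7 are lowest at 100 µM, GSTO1 is high in the set B libraries, and NR1I2 (PXR) stays between 15.0 and 21.1 CPM.

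ALDH1A1 had 507, 538 and 637 CPM in control, 500 to 566 CPM (median 541) at 0.01 to 1 µM, 524, 516 and 540 CPM at 10 µM, 395, 396 and 381 CPM at 100 µM and 462, 498 and 412 CPM at 1000 µM. The 100 µM libraries were the lowest, at -0.52 ± 0.085 (adjusted p = 5.56e-05), and the top dose was at -0.29 ± 0.084 (adjusted p = 0.00595), or -0.19 without control replicate 3. From 100 to 1000 µM it rose by 0.23 ± 0.084 (adjusted p = 0.0342, and 0.0714 with the set as a term), a call lost without any of 6 single libraries, the whole 100 µM group, both set B libraries of the top dose and replicate 2 at 0.1 µM.

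ALDH3A1, which oxidises aromatic and lipid aldehydes, had 1.71, 1.58 and 1.30 CPM in control, 1.37 to 2.33 CPM (median 1.79) at 0.01 to 1 µM, 1.34, 1.10 and 1.08 CPM at 10 µM, 0.637, 0.938 and 0.882 CPM at 100 µM and 2.17, 2.16 and 2.4 CPM at 1000 µM. It was thus lower at 100 µM and higher at 1000 µM than in control, without overlap with control at either dose, but the 1000 µM libraries overlap those at 0.01 µM (1.68, 2.20 and 2.33 CPM). The difference was -0.89 ± 0.21 at 100 µM (adjusted p = 0.00157, and 0.4 with the set as a term) and 0.54 ± 0.19 at 1000 µM (adjusted p = 0.0215), and the step between them was 1.44 ± 0.20 (adjusted p = 1.28e-05, and 1.53e-05 with the set as a term). The call at 1000 µM was lost without control replicate 3 or replicate 3 at 1000 µM.

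FMO5, a flavin monooxygenase of liver, had 174, 177 and 220 CPM in control, 154 to 192 CPM (median 161) at 0.01 to 1 µM, 217, 215 and 230 CPM at 10 µM and 212, 218 and 190 CPM at 1000 µM. It passed the test across the 7 groups but in no comparison with control, and its value at 1000 µM was 0.12 ± 0.091 (adjusted p = 0.256).

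CES2, the carboxylesterase that splits irinotecan, had 130, 138 and 107 CPM in control, 124 to 147 CPM (median 140) at 0.01 to 1 µM and 120, 119 and 120 CPM at 10 µM. At 100 µM it had 99.1, 93.4 and 91.4 CPM and at 1000 µM 55.9, 56.1 and 67.3 CPM. Both top doses lay below every other library, at -0.40 ± 0.090 (adjusted p = 0.00124, and 0.127 with the set as a term) and -1.07 ± 0.091 (adjusted p = 8.75e-09), and within set B the difference was -1.13 ± 0.051. CES1, the main carboxylesterase of adult liver, had 0.710 to 1.45 CPM over the 21 libraries and 0.24 ± 0.23 at 1000 µM (adjusted p = 0.385), and 29.78% of its windows occur in other genes, mostly CES1P1.

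EPHX2, the soluble epoxide hydrolase of lipid epoxides, had 23.2, 22.3 and 23.9 CPM in control, 25.4 to 28.7 CPM (median 27.3) at 0.01 to 1 µM, 28.0, 29.5 and 29.2 CPM at 10 µM, 32.7, 39.5 and 34.0 CPM at 100 µM and 21.4, 19.4 and 20.2 CPM at 1000 µM. The libraries at 100 µM were the highest and those at 1000 µM the lowest of all groups. It rose by 0.62 ± 0.079 at 100 µM (adjusted p = 4.15e-06), or 0.78 ± 0.14 with the set as a term, and fell by 0.80 from 100 to 1000 µM (adjusted p = 1.51e-07). Against control the top dose differed by -0.18 ± 0.080 (adjusted p = 0.0543). EPHX1, the microsomal form that acts on drug epoxides, had 68.0, 74.4 and 61.5 CPM in control and 47.5, 46.9 and 79.8 CPM at 1000 µM, and its difference of -0.23 ± 0.17 did not pass (adjusted p = 0.249). As for POR, the set C library was the high one, and within set B EPHX1 was lower at 1000 than at 10 µM, at -0.29 ± 0.056 (adjusted p = 0.000523).

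All 3 transporters rose at 1000 µM, with and without the set as a term (all features: 18.2% and 28.5% higher). ABCB1, or P-glycoprotein, which pumps many drugs out of cells, had 157, 147 and 158 CPM in control, 143 to 166 CPM (median 159) at 0.01 to 1 µM, 177, 165 and 183 CPM at 10 µM and 135, 167 and 136 CPM at 100 µM. At 1000 µM it had 398, 424 and 326 CPM, far above all other libraries. The log2 fold change was 1.31 ± 0.097 (adjusted p = 1.11e-09), 1.31 ± 0.12 with the set as a term and 1.20 ± 0.057 within set B, and at 100 µM it was -0.08 ± 0.096 (adjusted p = 0.529).

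ABCG2, the breast cancer resistance protein, had 30.3, 30.3 and 38.3 CPM in control, 29.5 to 37.4 CPM (median 31.2) at 0.01 to 1 µM, 38.6, 35.8 and 38.7 CPM at 10 µM, 33.3, 34.5 and 30.7 CPM at 100 µM and 66.3, 67.9 and 69.2 CPM at 1000 µM. It rose at the top dose by 1.04 ± 0.091 (adjusted p = 1.23e-08) and by 0.80 ± 0.059 within set B. ABCC3, which exports glucuronides toward the blood, had 69.8, 71.3 and 59.0 CPM in control, 59.1, 58.5 and 56.5 CPM at 10 µM, 52.9, 49.7 and 55.2 CPM at 100 µM and 98.1, 87.1 and 109 CPM at 1000 µM. It was lower than control at 100 µM, at -0.34 ± 0.094 (adjusted p = 0.00554, and 0.308 with the set as a term), and higher at 1000 µM, at 0.56 ± 0.093 (adjusted p = 4.39e-05), and the step between the doses was 0.90 ± 0.094 (adjusted p = 2.85e-07).

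**Figure D5:**
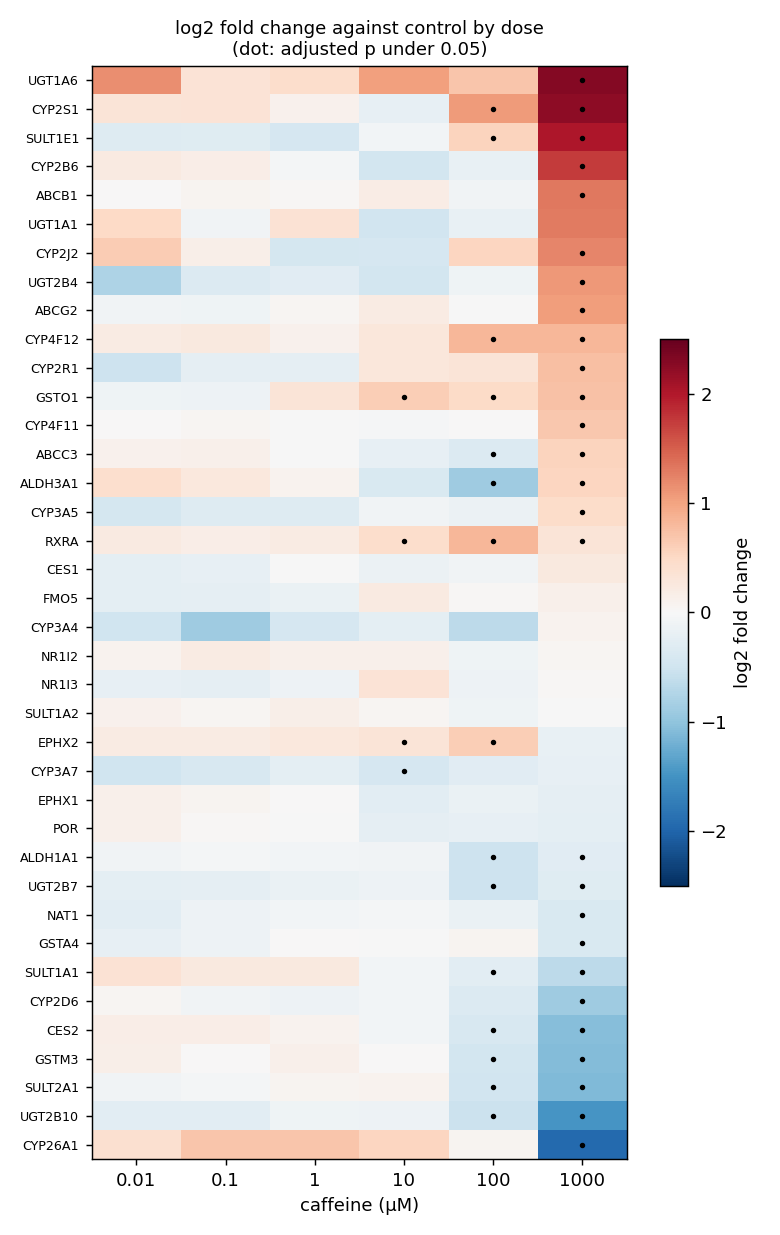
Log2 fold change against control of the 38 genes at each of the 6 doses of caffeine (colour), with a dot where the adjusted p is under 0.05. Dots appear from 10 µM (4 genes), and 15 and 27 genes carry them at 100 and 1000 µM.

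The step from 100 to 1000 µM does not involve the control mean, but all 21 libraries entered the fit. Between these doses 21 of 38 genes differed, 12 higher and 9 lower at 1000 µM (background 44%, 21.8% higher and 22.3% lower). With the set as a term 21 also did (background 46.3%), 20 of them the same genes. Without UGT1A6 each count was 20 of 37, 11 higher. CYP4F12 was called at both doses and did not differ between them, while UGT2B7 and ALDH1A1 were nearer to control at 1000 µM than at 100 µM, the step for UGT2B7 being 0.20 ± 0.087 (adjusted p = 0.0703). At 100 µM the 7 calls that held with the set as a term were CYP2S1, CYP4F12 and EPHX2 (higher) and ALDH1A1, GSTM3, SULT2A1 and UGT2B7 (lower).

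A list of 141 other genes of drug metabolism was set beside these, of which 128 are in the table and 90 were tested. At 1000 µM 65 of the 90 differed from control, 35 higher and 30 lower, or 72.2% (all features: 57.6%), and 52 did with the set as a term, or 57.8% (all features: 38%). In all 3 comparisons of that dose 46 of 90 moved the same way, 23 up and 23 down, or 51.1% (all features: 33.7%, 16.5% higher and 17.2% lower). The largest rises were those of AKR1B10, an aldo-keto reductase (52.7 ± 3.84 to 292 ± 48.4 CPM, SD, n = 3), and of the glucocorticoid receptor NR3C1 (17.4 ± 2.61 to 61.1 ± 2.22 CPM), followed by CEBPB (1.72 ± 0.21 on the log2 scale) and CYP4F3 (1.65 ± 0.17). The largest falls were those of ALDH3B1 (-2.92 ± 0.15), CYP4F2 (-2.88 ± 0.17), ADH6 (-1.55 ± 0.091) and SULT1A3 (-1.49 ± 0.26). The counts of the paralogs CYP4F2 and CYP4F3 thus went opposite ways, at 12.9 ± 2.15 and 8.24 ± 1.42 CPM in control against 1.76 ± 0.272 and 25.7 ± 5.56 CPM at 1000 µM. Shared windows were not measured for CYP4F2 and CYP4F3, and how shared reads were counted is not known. The value of SULT1A3 was -0.04 with the set as a term (adjusted p = 0.924). Its near-identical copy SULT1A4 had 0.90 ± 0.14 without that term and 0.29 ± 0.20 with it. Whether reads were split differently between SULT1A3 and SULT1A4 was not tested.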

How the data were processed

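Poly(dT)-selected RNA of 21 libraries was copied with SmartScribe reverse transcriptase, per the labels' protocols. The authors deposited whole-number read counts per feature, without normalization. The submitters' processing notes name HISAT2, DESeq2 and GRCh38. The counting tool, annotation release and use of strand are not given in the sources used here. A further 21 columns of per-sample values belong to none of these libraries and were not used. Symbols, coordinates and exon lengths came from GENCODE 29, promoters from RefSeq (GRCh38.p14).

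filterByExpr by group kept 17951 features. Counts were TMM-scaled, and edgeR 4.0.16 (R 4.3.3) ran the robust quasi-likelihood F-test in 1 fit with a coefficient for each group. Benjamini-Hochberg adjustment ran over all features kept, with calls at an adjusted p-value under 0.05. A standard error is the log2 fold change over the square root of F. Within set B 18323 features were tested. Library sets came from average-linkage clustering of the mitochondrial mRNAs (3 clusters, mean silhouette 0.571). All features of the mitochondrial chromosome together held 9.95% to 14.2% (set A), 4.72% to 4.94% (set B) and 11.8% to 12.8% (set C) of the counts. No pair of replicates matched within counting noise (21 pairs, chi-square per gene of at least 3.59), and p-values measure the spread between these libraries. The 3-count floors cover counting error only.

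Values by library were given for members with a mean of at least 1 CPM that passed the joint test, 25 at most, and for receptors and CYP3A genes. CYP2D6, CYP2J2, CYP26A1, the low UGT genes, NAT1, CES1, EPHX1 and SULT1A2 were added after their values were seen. In the list of other genes, the 4 largest rises and falls at 1000 µM with a mean of at least 5 CPM, and paralogs, were named. The members, lists and library sets were chosen with earlier results of these data known. Alternatives were the set as a term, set A alone, the replicate number as a block, DESeq2 1.42.0 and its size factors, no filter, a 5 CPM minimum, and each library left out. Only the main fit was tried on simulated counts, which had the same dispersion for all genes and no library sets. The fits with the set as a term and within set B were not tried in this way.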

Additional observations from a re-analysis of the deposited data

How the results depend on the processing

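Adding the library set as a term changed the number of members called from 0 to 3 (0.01 µM), from 4 to 0 (10 µM), from 15 to 7 (100 µM) and from 27 to 16 (1000 µM), while the counts at 1000 against 100 µM (21) and across the 7 groups (28) stayed within 1.5 times. With that term GSTO1 at 10 µM turned to -0.051, SULT1A1 at 100 µM to 0.048 and RXRA at 1000 µM to -0.020, none of them called, and the cause was not tested. DESeq2's test called 3 members at 0.01 µM and 1 at 1 µM. Leaving out each library in turn gave 0 members throughout for the 3 lowest doses. The range was 0 to 4 for 10 µM (2 without control replicate 1, 1 without replicate 1 and 0 without replicate 2 of that dose), 12 to 16 for 100 µM and 22 to 28 for 1000 µM. It was 27 to 31 across the 7 groups, 19 to 24 for 1000 against 100 µM and 23 to 31 within set B. DESeq2 size factors, no filter and a mean of at least 5 CPM kept every other total within 1.5 times. By direction, a mean of at least 5 CPM gave 10 higher and 10 lower of 26 at 1000 µM (7421 of 11112 features called). The main fit gave 16 and 11 of 38. No call at 0.01, 0.1 or 1 µM was made in set A alone. With the replicate number as a block the counts were 0, 0, 0, 4, 15 and 27 in order of dose, 28 across the groups, 21 and 30, so the block moved none by over 1.5 times. Same-numbered libraries did not deviate together (mean r of -0.108 to 0.152 over 21 pairs of groups, 1 of them above 0.1), so the numbers were not read as pairing. Depth limits the 11 genes too low to measure and the 7 low genes, whose standard errors with the set as a term reach 1.11 for UGT1A1 at 1000 µM.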

Other observations

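The list of other genes holds 4 electron donors and 7 genes of cofactor supply, all tested. At 1000 µM 1 electron donor was higher and 3 lower than control, and with the library set as a term 0 were higher and 3 lower. Of the genes of cofactor supply 2 were higher, 2 lower and 3 not called, and 2, 1 and 4 with that term. At this dose 57.6% of all features were called, and 38% with the term. The genes named here were picked after their values were seen. The electron donors CYB5A, CYB5B and CYB5R3, which hand electrons to CYP enzymes or to cytochrome b5, fell from 104 ± 3.06, 313 ± 21.9 and 333 ± 57.4 CPM in control to 58.0 ± 1.55, 143 ± 10.4 and 123 ± 45.1 CPM (SD, n = 3), and their log2 fold changes were -0.85, -1.13 and -1.44. With the library set as a term they were -0.77, -1.29 and -1.17 (adjusted p of 0.00019, 4.75e-07 and 0.000377 by edgeR). PAPSS1, which makes the sulfate donor of the SULT enzymes, fell from 213 ± 12.9 to 151 ± 12.5 CPM (-0.49 ± 0.077, and -0.48 ± 0.11 with the set as a term). MAT2A, which makes S-adenosylmethionine, rose from 132 ± 2.29 to 201 ± 7.81 CPM (0.61 ± 0.077, and 0.77 ± 0.12 with the set as a term). UGDH, which makes the glucuronic acid donor of the UGT enzymes, went from 466 ± 26.7 to 579 ± 93.2 CPM (0.31 ± 0.10, and 0.61 ± 0.050 against 10 µM within set B).

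Of the 7 other pumps of the ABC family in the list, at 1000 µM 3 were higher, 2 lower and 2 (ABCC1 and ABCC4) not called, with and without the set as a term (all features: 28.5% higher and 29.1% lower, or 18.2% and 19.8% with the term). Among the higher, ABCC2, which exports conjugates into bile, went from 1230 ± 69.9 to 2310 ± 156 CPM (0.91 ± 0.076), ABCC5 from 30.4 ± 1.66 to 75.2 ± 6.85 CPM (1.31 ± 0.10) and ABCB4, the phospholipid transporter beside ABCB1 on chromosome 7, from 6.46 ± 0.226 to 13.6 ± 1.17 CPM (1.08 ± 0.11). With the set as a term these were 0.89 ± 0.13, 1.28 ± 0.16 and 1.16 ± 0.18. The lower were ABCC6, from 56.7 ± 7.60 to 33.0 ± 2.11 CPM (-0.78 ± 0.094), and ABCC10, from 42.7 ± 10.4 to 29.4 ± 1.56 CPM (-0.54 ± 0.17), and with the set as a term these were -0.96 ± 0.16 and -0.80 ± 0.24. ABCB1 and ABCB4 are similar genes, and 2.02% of the 50-base windows of ABCB1 occur in ABCB4.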
